A study of Rattus norvegicus with 15 samples.

Results

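The genes described here are 42 that act in DNA replication and the cell cycle, taken as a list of rat symbols. The list was chosen with earlier results of these data known, and its genes were found on the array through the transcript accession of each probe. The list holds 28 genes of the G1/S transition and of replication and 14 genes of G2 and mitosis. Of the 42 genes, 39 had a probe named in this way, and 36 were tested (24 G1/S and 12 G2/M) among 19751 genes in all. Mcm5, Uhrf1 and Top2a had no probe of their name. Cdc6, Cdt1 and Bub1b were measured but not tested, because in no group did all 3 arrays show a probe of theirs well above background: the Cdc6 and Cdt1 probes were so on 3 of 15 arrays each, and the better Bub1b probe on 1.

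DNA replication is prepared in G1, when the MCM proteins are loaded onto origins as an inactive helicase. Cyclin E with Cdk2 and the transcription factor E2F1 then open S phase, in which the helicase is activated by Cdc45 and the GINS complex and in which polymerases, the sliding clamp and enzymes of nucleotide supply work at the fork. Entry into mitosis depends on Cdk1 with cyclin B, and its course on the Polo-like and Aurora kinases and the spindle checkpoint. Adult hepatocytes rest outside the cycle and can re-enter it, as they do after loss of liver tissue.

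The cells were cryopreserved primary hepatocytes of male Wister rats (the spelling of the labels), kept for 24 h in culture and then exposed for 24 h. The 5 conditions, each with 3 arrays from what the design text calls independent experiments, were measured on one-colour Agilent arrays: 1,5-naphthalenediol, 2,7-naphthalenediol, 1-naphthol and naphthalene, all at 30 µM, and the solvent DMSO. Naphthalene is an aromatic hydrocarbon of fused rings, 1-naphthol carries a hydroxyl group on it, and the diols carry a hydroxyl group on each ring and differ from each other in where those groups sit. The series was made to compare the liver toxicity of naphthalene with that of these analogs. The p-values measure the spread between these arrays, and whether the experiments used different animals is not given in the sources used here.

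Levels are log2 intensities relative to the 75th percentile of the same array, so a level of 0 equals that percentile. Changes are differences of mean levels ± standard error from 1 limma model of all 15 arrays, and a gene is called when its Benjamini-Hochberg adjusted p over all 19751 genes is below 0.05. The words rose, fell, higher and lower stand for called genes. The arrays sat on 2 slides. Slide 1 held all arrays of 2,7-naphthalenediol and of DMSO and 1,5-naphthalenediol 1 and 2, and slide 2 held 1,5-naphthalenediol 3 with the arrays of naphthalene and of 1-naphthol. For 1-naphthol and naphthalene against DMSO, slide and compound can therefore not be told apart except through 1,5-naphthalenediol. Between 57.4% and 61% of the gene spots of an array were well above background, and arrays of the same group correlated at 0.9957 or more.

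All 10 hepatocyte markers checked, Alb, Ttr, Hnf4a and Cps1 among them, were well above background on all 15 arrays. Their summed level on the linear scale, in units of the 75th percentile, was 510.2 to 540.3 with 1,5-naphthalenediol, 518.4 to 532.4 with 2,7-naphthalenediol, 513.8 to 535.4 with 1-naphthol and 518.2 to 545.6 with naphthalene, against 547.1 to 564.4 with DMSO. Of 9 stellate cell markers 5 were tested, and their sum was 2.12 to 2.31, 2.80 to 3.49, 2.49 to 2.99 and 2.66 to 3.33 with the compounds in the same order, against 3.57 to 3.71 with DMSO. The stellate cell gene Lrat was well above background on 0 arrays, as were the Kupffer cell genes Clec4f, Marco and Adgre1, the leukocyte gene Ptprc, the endothelial gene Pecam1, the bile duct gene Krt19 and the T cell gene Cd3e. Other markers of these lists were well above background on all 15 arrays. They were the stellate cell genes Acta2, Des, Col1a2, Reln and Tagln, the macrophage gene Cd68 and the endothelial genes Vwf and Cdh5. The bile duct genes Epcam and Sox9 and the T cell gene Cd3d were so as well, and the lymphocyte gene Nkg7 was so on 8 arrays. The hepatocyte and the stellate sums of every compound thus lay below those of DMSO, and the stellate sum was lowest with 1,5-naphthalenediol. Such a sum is set mostly by its brightest genes. Of the 10 hepatocyte markers 3 rose and 0 fell with 1,5-naphthalenediol, and 0 were called with 2,7-naphthalenediol or 1-naphthol. Their median change was -0.06, -0.08 and -0.06 with these 3 compounds. Gene by gene the 5 stellate markers did not move together. Tagln fell by 0.75 with 1,5-naphthalenediol and by 0.47 with 1-naphthol, and Reln rose by 0.52, 0.34 and 0.40 with 1,5-naphthalenediol, 2,7-naphthalenediol and naphthalene (adjusted p = 0.000497, 0.011, 0.00142, 0.0278 and 0.00829), while the others were not called. The median change of the 5 was -0.02, 0.15, 0.09 and 0.34 with 1,5-naphthalenediol, 2,7-naphthalenediol, 1-naphthol and naphthalene. The sum of the 2 tested bile duct markers was 0.522 to 0.536, 0.473 to 0.515, 0.468 to 0.563 and 0.627 to 0.656 in the same order, against 0.611 to 0.659 with DMSO. These 2 markers did not move together either. With 1,5-naphthalenediol, 2,7-naphthalenediol and 1-naphthol 1 of them was called lower, at -0.32, -0.44 and -0.49. The other changed by 0.07, 0.10 and 0.40, and was called higher with 1-naphthol only. The part of these shifts in the changes described next was not tested. In cultures measured as a whole, fewer cells of a type and less RNA per cell cannot be told apart.

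Most of the G1/S genes tested were higher after 1,5-naphthalenediol, and most of the 12 G2/M genes tested were not called, whereas a wider list of mitotic genes, given at the end, had 7 of 34 higher. With 1,5-naphthalenediol 19 of the 36 tested genes rose and 2 fell against DMSO, where 9.26% of all tested genes rose and 12.7% fell (22% either way). Because the genes were chosen with earlier results of these data known, such shares are a description and no test of the list was made. Of the 24 G1/S genes 17 rose and 1 fell, with a median change of 0.27, and of the 12 G2/M genes 2 rose and 1 fell, with a median change of -0.06, beside a median of -0.02 over all genes. With 2,7-naphthalenediol 6 genes rose and 0 fell, 3 of each phase, against 5.85% of all genes up and 5.52% down (11.4% either way). With 1-naphthol 5 G1/S genes rose and 3 G2/M genes fell, against 10.7% up and 9.53% down (20.3% either way), a total near that background. With naphthalene 3 rose and 3 fell, against 12.1% up and 12.8% down (24.9% either way), which is below it. In the F test for any difference among the 5 groups, 26 of the 36 genes were called, 18 G1/S and 8 G2/M, against 44.3% of all genes.

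**Figure D1:**
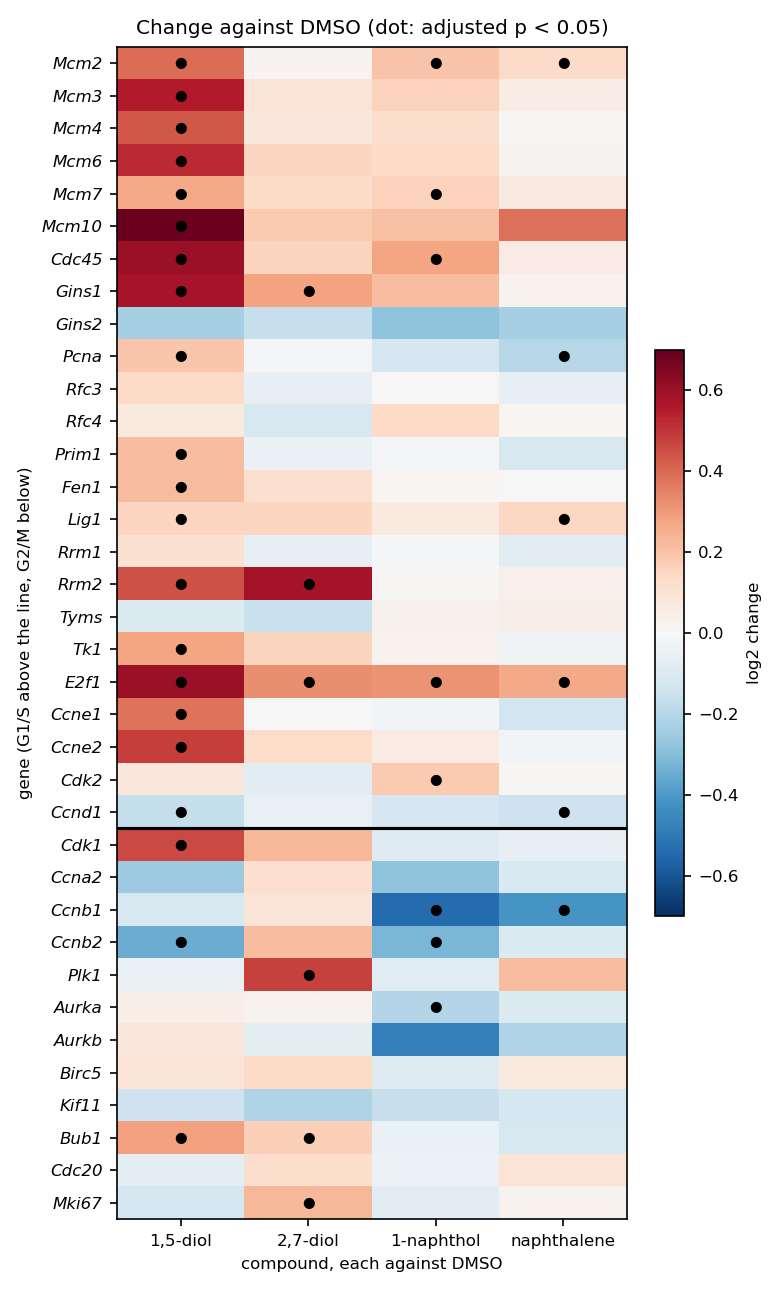
Log2 change against DMSO of the 36 tested genes (rows, G1/S genes above the line and G2/M genes below it) for the 4 compounds (columns), with a dot where the adjusted p is below 0.05. The 1,5-naphthalenediol column holds 17 called increases above the line and 2 below it, and the decreases of 1-naphthol and naphthalene in Ccnb1 stand below it.

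The calls with 1,5-naphthalenediol depended least on single arrays. Of its 21 calls, 15 were kept whichever array was left out, and the same 15 when slide was added to the model as a block, where 19 were kept in all. None of the 6 calls of 2,7-naphthalenediol were kept under every omission: 0 were left without DMSO 3 or without 2,7-naphthalenediol 3, 1 without DMSO 2, and 2 without DMSO 1, 2,7-naphthalenediol 1 or 2,7-naphthalenediol 2. Against DMSO the count of 8 for 1-naphthol was 3 without DMSO 2 or 1-naphthol 3, 4 without 1-naphthol 2 and 5 without DMSO 3, and the count of 6 for naphthalene was 2 without DMSO 2, DMSO 3 or naphthalene 2 and 3 without naphthalene 1. With the slide as a block the 8 calls of 1-naphthol and the 6 of naphthalene against DMSO were 0 and 0. The changes behind these calls all kept their sign, at adjusted p of 0.0833 to 0.434 with 1-naphthol and 0.146 to 0.615 with naphthalene in limma: with 1-naphthol Ccnb1 was -0.45 with the block and -0.54 without it, E2f1 0.33 and 0.32, Mcm7 0.16 and 0.16, Ccnb2 -0.60 and -0.32 and Aurka -0.32 and -0.20, and with naphthalene Ccnb1 was -0.33 and -0.41, Mcm2 0.08 and 0.14 and Lig1 0.24 and 0.14. In that model 1,5-naphthalenediol alone links the slides, and the loss of the calls does not show that the slide accounts for the changes.

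The 5 tested subunits of the MCM complex, which unwinds DNA at the fork, each rose with 1,5-naphthalenediol on the probe used, Mcm3 on 1 of its 2 probes. The remaining subunit gene, Mcm5, had no probe. Mcm3 lay at -0.52, -0.47 and -0.42 with 1,5-naphthalenediol and at -0.94, -1.05 and -0.82 with 2,7-naphthalenediol. It lay at -0.83, -0.84 and -0.92 with 1-naphthol and at -1.04, -0.97 and -0.90 with naphthalene, against -1.12, -0.95 and -1.01 with DMSO. The 3 arrays of 1,5-naphthalenediol stood above all other 12, with a change against DMSO of 0.56 ± 0.0643 (adjusted p = 0.000128). A second, much dimmer Mcm3 probe (level -5.97) changed by -0.07, and on the mean of both probes the call was lost, with a change of 0.24, as were the calls between 1,5-naphthalenediol and each other compound.

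Mcm2 lay at -0.02, 0.11 and 0.10 with 1,5-naphthalenediol and at -0.33, -0.34 and -0.25 with 2,7-naphthalenediol. With 1-naphthol it lay at -0.11, -0.14 and -0.13 and with naphthalene at -0.21, -0.24 and -0.13, against -0.28, -0.37 and -0.33 with DMSO. Its levels thus ran from 1,5-naphthalenediol down through 1-naphthol and naphthalene, whose arrays met at -0.13, to 2,7-naphthalenediol and DMSO, which overlapped. Mcm2 rose by 0.39 ± 0.0464 with 1,5-naphthalenediol (adjusted p = 0.000156), by 0.20 ± 0.0464 with 1-naphthol (0.0127) and by 0.14 ± 0.0464 with naphthalene (0.0496). Its change with 2,7-naphthalenediol was 0.02 (95% interval -0.08 to 0.12). Its second probe gave 0.39 with 1,5-naphthalenediol, 0.10 with 1-naphthol and 0.01 with naphthalene, smaller than on the brighter probe. The call with naphthalene ended without any 1 of the 6 arrays behind it, and that with 1-naphthol was kept under each omission.

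Mcm6 lay at -3.45, -3.66 and -3.55 with 1,5-naphthalenediol, at -3.94, -4.05 and -3.81 with 2,7-naphthalenediol, at -3.95, -4.00 and -3.87 with 1-naphthol and at -4.01, -4.18 and -3.99 with naphthalene, against -4.09, -4.06 and -4.09 with DMSO. The arrays of 1,5-naphthalenediol again lay above the other 12, and Mcm6 rose by 0.52 ± 0.0717 (adjusted p = 0.000397). Mcm4 rose by 0.43 ± 0.0671 and Mcm7 by 0.26 ± 0.0433 (adjusted p = 0.000893 and 0.00133). With 1-naphthol, Mcm7 rose as well, by 0.16 ± 0.0433 (adjusted p = 0.0245, lost without DMSO 2, DMSO 3 or any 1-naphthol array), while Mcm3, Mcm4 and Mcm6 changed by 0.16, 0.12 and 0.14 without a call. With 2,7-naphthalenediol none of the 5 was called, at changes of 0.02 to 0.15.

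Promoter windows of Mcm2, Mcm3, Mcm6, Mcm7 and Gins1 are shown, because these 5 genes rose with 1,5-naphthalenediol and hold a motif bound by E2F factors. The sequences are from RefSeq (GRCr8), read 5′ to 3′ on the strand of the gene, with matches to TTTCGCGC or TTTGGCGC on either strand in capitals. Mcm2 is from chr4:122918065-122918148 on the minus strand, Mcm3 from chr9:30733717-30733773 on the minus strand and Mcm6 from chr13:42404440-42404531 on the minus strand. Mcm7 is from chr12:22163183-22163270 on the minus strand and Gins1 from chr3:160184855-160184946 on the plus strand.
Mcm2: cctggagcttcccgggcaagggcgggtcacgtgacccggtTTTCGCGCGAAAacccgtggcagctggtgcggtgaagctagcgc
Mcm3: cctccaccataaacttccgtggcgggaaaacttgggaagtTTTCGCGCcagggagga
Mcm6: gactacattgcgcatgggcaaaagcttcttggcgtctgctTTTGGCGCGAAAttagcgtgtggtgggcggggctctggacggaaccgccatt
Mcm7: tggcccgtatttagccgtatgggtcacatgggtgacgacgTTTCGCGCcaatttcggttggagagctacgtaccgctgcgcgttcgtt
Gins1: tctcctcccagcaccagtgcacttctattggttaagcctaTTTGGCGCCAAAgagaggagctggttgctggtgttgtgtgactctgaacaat
In Mcm2, Mcm6 and Gins1 the match on one strand overlaps a match on the other. Windows from 250 bases before to 50 bases after the start were given for 34 of the 42 genes. The motif stood in 10 of 22 G1/S windows, among them those of Mcm5, Cdt1, Lig1, Rfc3 and Tyms, in 1 of 12 G2/M windows, and in 265 of 33469 windows of all genes (0.792%). Of the G1/S genes with a window that rose with 1,5-naphthalenediol 6 of 13 held it, and of the tested G1/S genes that did not rise 2 of 6 (Rfc3 and Tyms). A match is a description of the letters, and its absence from 12 G1/S windows, those of Gins2, Mcm10, Cdc45, Pcna and Ccne1 among them, says only that these words are not there.

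Of the 4 tested genes that activate the helicase, 3 rose with 1,5-naphthalenediol. Cdc45, part of the active helicase, lay at -1.73, -1.63 and -1.59 with 1,5-naphthalenediol and at -2.08, -2.24 and -1.98 with 2,7-naphthalenediol. With 1-naphthol it lay at -1.95, -1.96 and -2.01 and with naphthalene at -2.17, -2.29 and -2.12, against -2.22, -2.28 and -2.25 with DMSO. The 1,5-naphthalenediol arrays were the highest 3 of 15, and the 1-naphthol arrays lay above those of naphthalene and DMSO. Cdc45 rose by 0.60 ± 0.0646 with 1,5-naphthalenediol (adjusted p = 7.85e-05) and by 0.28 ± 0.0646 with 1-naphthol (0.0137), and changed by 0.15 and 0.06 with 2,7-naphthalenediol and naphthalene.

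Gins1, a subunit of the GINS complex, lay at -2.77, -2.70 and -2.69 with 1,5-naphthalenediol, at -3.03, -3.21 and -2.80 with 2,7-naphthalenediol, at -3.09, -3.05 and -3.11 with 1-naphthol and at -3.29, -3.30 and -3.23 with naphthalene, against -3.27, -3.30 and -3.32 with DMSO. The lowest array with either diol exceeded all DMSO arrays. Gins1 rose by 0.58 ± 0.0768 with 1,5-naphthalenediol and by 0.28 ± 0.0768 with 2,7-naphthalenediol (adjusted p = 0.000331 and 0.0383). Without 2,7-naphthalenediol 3, its highest array, the smaller call ended, as it did without any of 4 further arrays (adjusted p up to 0.111). Mcm10, which helps the helicase to start, rose by 0.69 ± 0.202 with 1,5-naphthalenediol (adjusted p = 0.0306), but its DMSO arrays spread from -6.38 to -5.44 and the call ended without DMSO 2, DMSO 3, 1,5-naphthalenediol 1 or 1,5-naphthalenediol 2 (adjusted p up to 0.107). Gins2, of the same complex as Gins1, was not called with any compound and changed by -0.23 with 1,5-naphthalenediol.

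**Figure D2:**
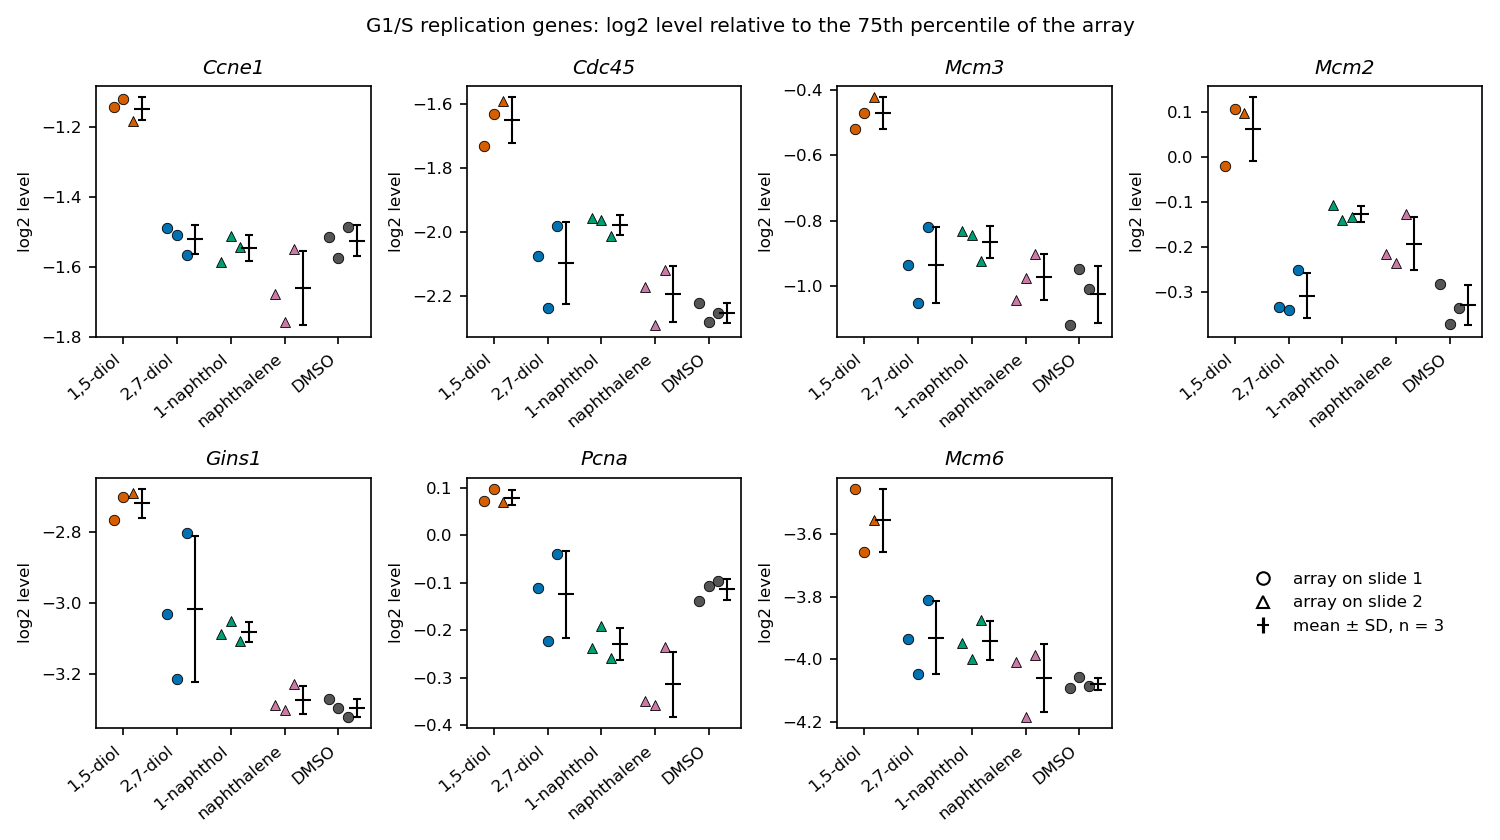
Log2 level on each array (points, circles for slide 1 and triangles for slide 2) and mean ± SD of 3 arrays for the 7 G1/S genes with the lowest p in the F test, with the 4 compounds left of DMSO. In all 7 genes the 3 arrays of 1,5-naphthalenediol lie above the other 12, the nearest being 2,7-naphthalenediol 3 in Gins1, at -2.80 beside -2.77. The genes were picked by that p on these same arrays, which favours groups that stand apart. The share of all genes with such a separation was not counted.

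Genes of synthesis at the fork moved less. Pcna, the sliding clamp that holds the polymerases on DNA, lay at 0.07, 0.10 and 0.07 with 1,5-naphthalenediol and at -0.11, -0.22 and -0.04 with 2,7-naphthalenediol. With 1-naphthol it lay at -0.24, -0.19 and -0.26 and with naphthalene at -0.35, -0.36 and -0.24, against -0.14, -0.11 and -0.10 with DMSO. It was the single gene of the list called in opposite directions: it rose by 0.19 ± 0.0487 with 1,5-naphthalenediol (adjusted p = 0.0149) and fell by 0.20 ± 0.0487 with naphthalene (0.0136), with no overlap of arrays on either side. Both calls were kept under each omission of an array (adjusted p up to 0.0491 and 0.0498), but with the slide as a block the naphthalene call was lost (-0.18, adjusted p = 0.282) and the 1,5-naphthalenediol call kept (0.20, 0.028). Fen1, the nuclease that trims Okazaki fragments, rose by 0.22 ± 0.0413 with 1,5-naphthalenediol, the primase subunit Prim1 by 0.21 ± 0.0597 and the ligase Lig1 by 0.15 ± 0.0483 (adjusted p = 0.00271, 0.0244 and 0.0422). Lig1 also rose with naphthalene, by 0.14 ± 0.0483 (adjusted p = 0.0494). The calls of Prim1 and of Lig1, in both compounds, ended on the omission of several single arrays, each DMSO array among them, and the Prim1 call also with the slide as a block (adjusted p = 0.073). The clamp loader genes Rfc3 and Rfc4 were not called against DMSO with any compound, at changes of -0.11 to 0.14.

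Among the 4 genes of nucleotide supply, the small subunit gene of ribonucleotide reductase moved apart from the large one. Rrm2 lay at -1.66, -1.48 and -1.58 with 1,5-naphthalenediol, at -1.39, -1.69 and -1.24 with 2,7-naphthalenediol, at -1.79, -2.07 and -2.18 with 1-naphthol and at -1.98, -2.14 and -1.84 with naphthalene, against -1.96, -2.01 and -2.10 with DMSO. All 6 diol arrays exceeded the other 9. Rrm2 rose by 0.45 ± 0.121 with 1,5-naphthalenediol and by 0.58 ± 0.121 with 2,7-naphthalenediol (adjusted p = 0.021 and 0.014), and leaving out single arrays took these to at most 0.0724 (without 1,5-naphthalenediol 2, DMSO 2 or DMSO 3) and 0.0542 (without DMSO 3 or 2,7-naphthalenediol 3). Rrm1, the large subunit, was not called, at 0.11 with 1,5-naphthalenediol and -0.06 with 2,7-naphthalenediol. The thymidine kinase Tk1 rose by 0.27 ± 0.065 with 1,5-naphthalenediol (adjusted p = 0.011), and the thymidylate synthase Tyms was not called with any compound, at -0.15 to 0.04.

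Of the genes that control entry into S phase, E2f1 and the cyclin E genes rose with 1,5-naphthalenediol. Ccne1, one of the cyclins that activate Cdk2, had the lowest p in the F test of all 36 genes (adjusted p = 0.000304). It lay at -1.14, -1.12 and -1.18 with 1,5-naphthalenediol and at -1.49, -1.51 and -1.57 with 2,7-naphthalenediol. With 1-naphthol it lay at -1.59, -1.51 and -1.54 and with naphthalene at -1.68, -1.76 and -1.55, against -1.51, -1.57 and -1.49 with DMSO. The other 12 arrays lay together, below the 3 of 1,5-naphthalenediol. Ccne1 rose by 0.38 ± 0.0511 (adjusted p = 0.000369), and its change was 0.00 with 2,7-naphthalenediol (95% interval -0.11 to 0.11). Ccne2, its paralog, rose by 0.48 ± 0.0806 with 1,5-naphthalenediol (adjusted p = 0.00144) and was not called with the other compounds.

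E2f1, which turns on S phase genes, lay at -2.52, -2.49 and -2.52 with 1,5-naphthalenediol, at -2.79, -2.85 and -2.74 with 2,7-naphthalenediol, at -2.74, -2.88 and -2.79 with 1-naphthol and at -2.80, -2.73 and -3.03 with naphthalene, against -3.04, -3.25 and -3.06 with DMSO. It was called with each compound, at 0.60, 0.33, 0.32 and 0.26 ± 0.0768 in that order (adjusted p = 0.000242, 0.0226, 0.0159 and 0.0274), in comparisons that share the same DMSO arrays. The call with 1,5-naphthalenediol was kept when any array was left out, and each of the other 3 ended without DMSO 2, its lowest array. Ccnd1, the cyclin of early G1, went the other way: it fell by 0.17 ± 0.0479 with 1,5-naphthalenediol and by 0.15 ± 0.0479 with naphthalene (adjusted p = 0.028 and 0.0444). Both Ccnd1 calls ended with the slide as a block (adjusted p = 0.0606 and 0.473) and without single arrays, DMSO 1 and DMSO 3 among them in both. Cdk2 rose with 1-naphthol, by 0.18 ± 0.0576 (adjusted p = 0.0424), where leaving out DMSO 1, DMSO 2 or any 1-naphthol array ended the call (adjusted p up to 0.144).

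Of the 12 mitotic genes Cdk1 and Bub1 rose with 1,5-naphthalenediol, and Ccnb2 fell on 1 of its 2 probes. Cdk1, the kinase that starts mitosis, lay at -1.87, -1.81 and -1.87 with 1,5-naphthalenediol and at -2.16, -2.15 and -1.93 with 2,7-naphthalenediol. With 1-naphthol it lay at -2.32, -2.47 and -2.43 and with naphthalene at -2.42, -2.47 and -2.24, against -2.27, -2.40 and -2.27 with DMSO. Cdk1 rose by 0.46 ± 0.0743 with 1,5-naphthalenediol (adjusted p = 0.00112). With 2,7-naphthalenediol the arrays also lay above those of DMSO, but the change of 0.23 was not called (adjusted p = 0.0609). Bub1, a kinase of the spindle checkpoint, lay at -3.24, -3.33 and -3.31 with 1,5-naphthalenediol and at -3.44, -3.46 and -3.32 with 2,7-naphthalenediol. It lay at -3.62, -3.67 and -3.59 with 1-naphthol and at -3.71, -3.70 and -3.65 with naphthalene, against -3.58, -3.62 and -3.54 with DMSO. It rose by 0.29 ± 0.0454 and by 0.17 ± 0.0454 with the diols (adjusted p = 0.00102 and 0.0358), the smaller call being lost without any 1 of the 6 arrays behind it (adjusted p up to 0.124).

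The partners of Cdk1 did not follow it. Ccnb1, the main cyclin B gene, lay at -4.83, -4.89 and -4.95 with 1,5-naphthalenediol, at -4.77, -4.75 and -4.54 with 2,7-naphthalenediol, at -5.31, -5.45 and -5.19 with 1-naphthol and at -5.27, -5.26 and -5.05 with naphthalene, against -4.73, -4.94 and -4.66 with DMSO. Every array of 1-naphthol and naphthalene lay below every DMSO array, and the diols overlapped DMSO. Ccnb1 fell by 0.54 ± 0.0943 with 1-naphthol and by 0.41 ± 0.0943 with naphthalene (adjusted p = 0.00391 and 0.0102). All arrays of these compounds sat on the other slide from DMSO. The 1,5-naphthalenediol array on that slide lay at -4.95, against -4.83 and -4.89 for its arrays on the DMSO slide. Ccnb2, another cyclin B gene, lay at -4.74, -4.82 and -4.51 with 1,5-naphthalenediol, at -4.18, -4.23 and -3.98 with 2,7-naphthalenediol, at -4.55, -4.83 and -4.62 with 1-naphthol and at -4.32, -4.54 and -4.49 with naphthalene, against -4.34, -4.39 and -4.30 with DMSO. It fell by 0.35 ± 0.0987 with 1,5-naphthalenediol and by 0.32 ± 0.0987 with 1-naphthol (adjusted p = 0.0268 and 0.0401), the second call being lost without any DMSO array, 1-naphthol 2 or 1-naphthol 3. The Ccnb2 call with 1,5-naphthalenediol ended without DMSO 1, DMSO 3, 1,5-naphthalenediol 1 or 1,5-naphthalenediol 2 (adjusted p up to 0.0964), and with the slide as a block the change was -0.44 (0.00933). The second Ccnb2 probe, dimmer but well above background on all 15 arrays, changed by -0.01 with 1,5-naphthalenediol and by -0.09 with 1-naphthol, and on the mean of both probes neither call was kept (-0.18 and -0.20, adjusted p = 0.316 and 0.246). Cyclin A2 (Ccna2), a partner of Cdk2 and Cdk1, changed by -0.26 with 1,5-naphthalenediol and was not called against DMSO with any compound.

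**Figure D3:**
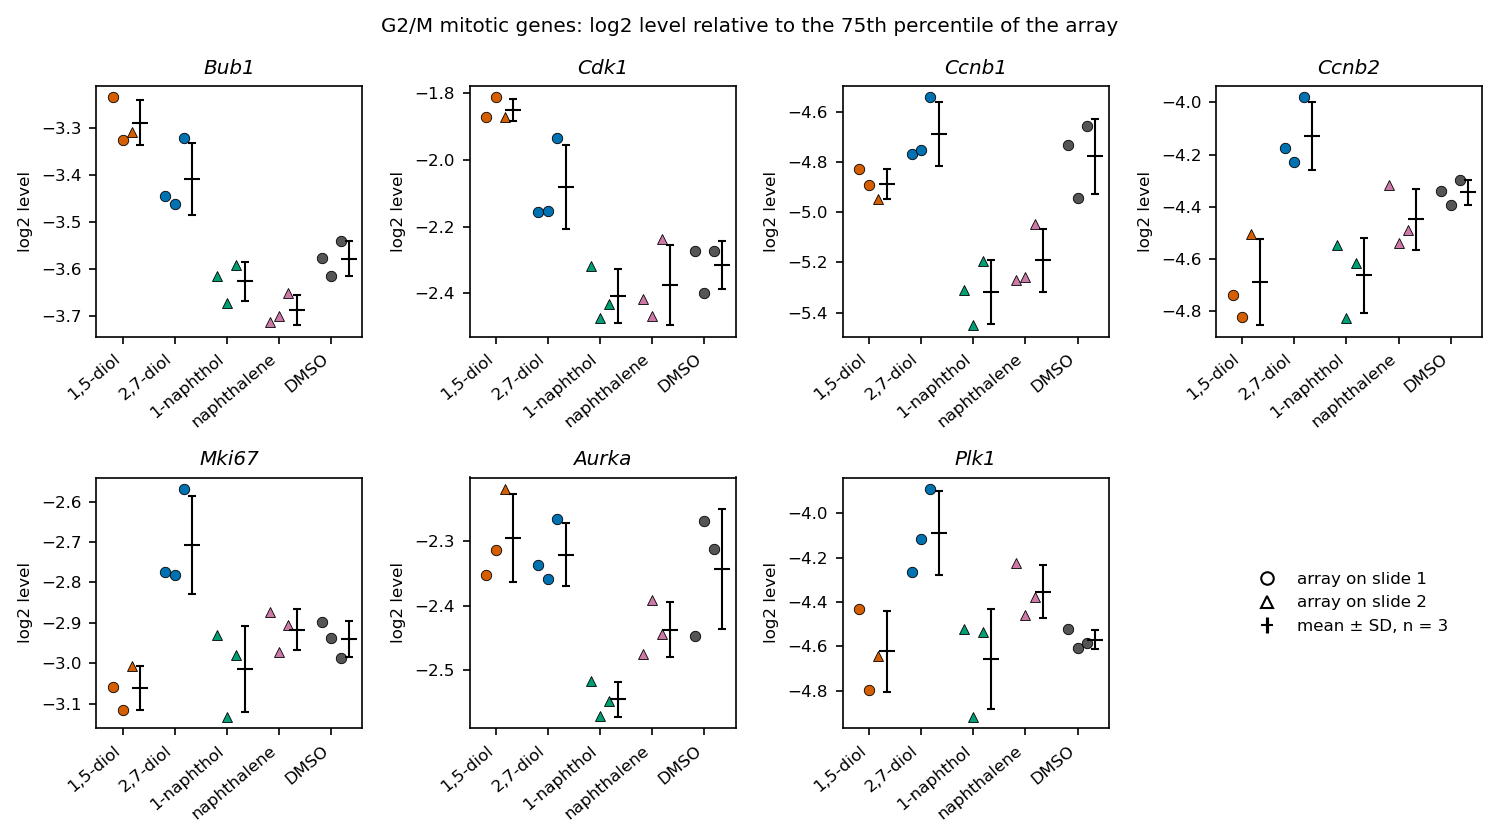
Log2 level on each array (points, circles for slide 1 and triangles for slide 2) and mean ± SD of 3 arrays for the 7 G2/M genes with the lowest p in the F test, with the 4 compounds left of DMSO. Bub1 and Cdk1 stand highest with 1,5-naphthalenediol, Ccnb2, Mki67 and Plk1 stand highest with 2,7-naphthalenediol, and Ccnb1 is lowest with 1-naphthol and naphthalene.

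Plk1, the Polo-like kinase, and Mki67, the gene of the proliferation marker Ki-67, rose with 2,7-naphthalenediol. Plk1 lay at -4.43, -4.80 and -4.64 with 1,5-naphthalenediol, at -4.26, -4.12 and -3.89 with 2,7-naphthalenediol, at -4.52, -4.92 and -4.53 with 1-naphthol and at -4.22, -4.46 and -4.38 with naphthalene, against -4.52, -4.61 and -4.58 with DMSO. With 2,7-naphthalenediol it rose by 0.48 ± 0.126 (adjusted p = 0.0324), all 3 arrays lying above DMSO. Mki67 lay at -3.06, -3.12 and -3.01 with 1,5-naphthalenediol, at -2.77, -2.78 and -2.57 with 2,7-naphthalenediol, at -2.93, -3.13 and -2.98 with 1-naphthol and at -2.87, -2.97 and -2.91 with naphthalene, against -2.90, -2.94 and -2.99 with DMSO. It rose by 0.23 ± 0.0663 with 2,7-naphthalenediol (adjusted p = 0.0441), while all 3 arrays of 1,5-naphthalenediol lay below those of DMSO without a call (-0.12, adjusted p = 0.219). Neither call held under every omission: that of Plk1 reached an adjusted p of 0.113 and ended without 5 of the 6 arrays (all but 2,7-naphthalenediol 1), and that of Mki67 reached 0.145 and ended without any of the 6. The 4 Mki67 probes changed by 0.23, 0.33, 0.22 and -0.01 with 2,7-naphthalenediol, and the call was lost on their mean. Aurka, an Aurora kinase of the spindle poles, lay at -2.35, -2.31 and -2.22 with 1,5-naphthalenediol, at -2.34, -2.36 and -2.27 with 2,7-naphthalenediol, at -2.52, -2.57 and -2.55 with 1-naphthol and at -2.48, -2.39 and -2.44 with naphthalene, against -2.45, -2.27 and -2.31 with DMSO. It fell by 0.20 ± 0.0522 with 1-naphthol (adjusted p = 0.0201), a call that ended without DMSO 2, DMSO 3, 1-naphthol 2 or 1-naphthol 3 (adjusted p up to 0.0737). Birc5, Kif11 and Cdc20, genes of the chromosomal passenger complex, of a spindle motor and of an activator of the anaphase-promoting complex, were not called with any compound, nor was Aurkb, which was well above background on 11 of 15 arrays.

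Promoters of 3 mitotic genes whose levels were highest with 2,7-naphthalenediol, and that of Cdk1, which rose with 1,5-naphthalenediol, are shown for comparison with those of the MCM genes. Capitals mark the CHR element of mitotic genes, searched as TTTGAA or TTCGAA on both strands, and in Cdk1 the E2F word as well. Ccnb2 is from chr8:79981656-79981741 on the minus strand, Plk1 from chr1:186147624-186147687 on the plus strand, Mki67 from chr1:199952647-199952750 on the minus strand and Cdk1 from chr20:19265145-19265297 on the plus strand (GRCr8, RefSeq).
Ccnb2: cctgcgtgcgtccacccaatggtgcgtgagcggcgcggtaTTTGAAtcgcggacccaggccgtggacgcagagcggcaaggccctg
Plk1: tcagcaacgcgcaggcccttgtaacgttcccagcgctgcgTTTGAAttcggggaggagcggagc
Mki67: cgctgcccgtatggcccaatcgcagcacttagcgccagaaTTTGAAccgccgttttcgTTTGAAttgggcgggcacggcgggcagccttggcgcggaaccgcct
Cdk1: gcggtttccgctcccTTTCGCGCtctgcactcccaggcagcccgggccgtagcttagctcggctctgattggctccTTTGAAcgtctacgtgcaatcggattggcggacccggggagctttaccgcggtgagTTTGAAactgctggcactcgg
The CHR words stood in 8 of 12 G2/M windows, in 4 of 22 G1/S windows and in 6608 of 33469 windows of all genes (19.7%). The Cdk1 window was the one G2/M window with the E2F words. The CCAAT box, searched as CCAAT on both strands, stood in 9 of 12 G2/M windows and in 14 of 22 G1/S windows, against 37.5% of all windows.

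The contrast of the phases was set out array by array. For each array the median level of the 24 G1/S genes and that of the 12 G2/M genes, each gene taken relative to its DMSO mean, were subtracted. The difference was 0.25, 0.42 and 0.33 with 1,5-naphthalenediol, -0.06, -0.08 and -0.12 with 2,7-naphthalenediol, 0.14, 0.28 and 0.22 with 1-naphthol and 0.04, 0.09 and 0.13 with naphthalene, against -0.03, 0.05 and -0.02 with DMSO. All arrays of 1,5-naphthalenediol and of 1-naphthol lay above all DMSO arrays, all arrays of 2,7-naphthalenediol below them, and those of naphthalene overlapped them. In 1,5-naphthalenediol the G1/S median averaged 0.29 ± 0.0576 and the G2/M median -0.04 ± 0.0329 (SD, n = 3), and in 1-naphthol they averaged 0.07 ± 0.0357 and -0.15 ± 0.103. In 2,7-naphthalenediol both medians were positive, at 0.06 ± 0.0561 for G1/S and 0.15 ± 0.0855 for G2/M, and in naphthalene they were 0.01 ± 0.0538 and -0.08 ± 0.043. The array of 1,5-naphthalenediol on slide 2 (0.33) lay between its arrays on slide 1 (0.25 and 0.42).

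**Figure D4:**
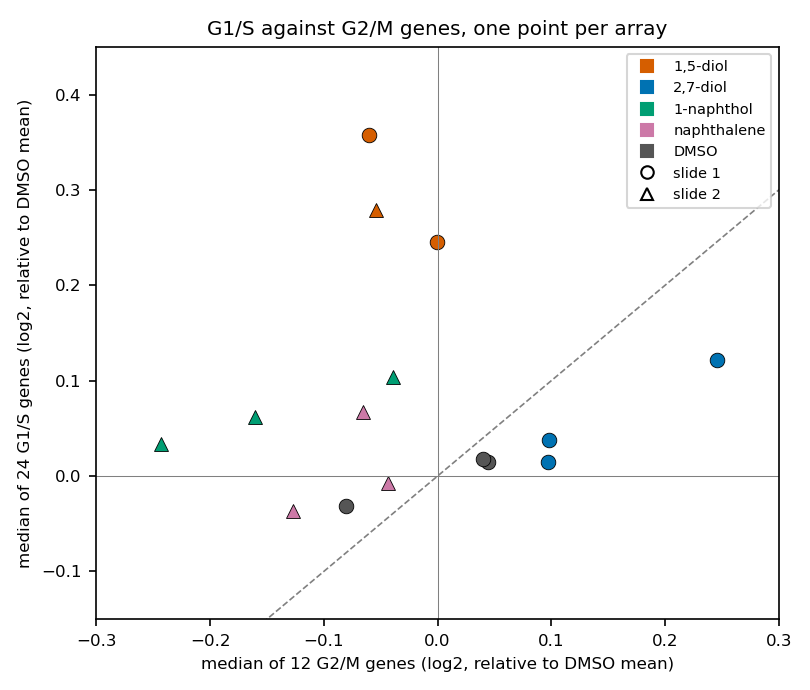
Median of the 24 G1/S genes (vertical, log2 relative to the DMSO mean) against that of the 12 G2/M genes (horizontal, same unit), with 1 point per array, circles for slide 1 and triangles for slide 2; on the dashed line both medians are equal. The arrays of 1,5-naphthalenediol stand at 0.25 to 0.36 on the vertical axis, above all others, while those of 2,7-naphthalenediol lie below the line and those of 1-naphthol and naphthalene above it.

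All 4 compounds were given at the same dose and time, so their levels were also compared directly, in 6 pairs, with p-values adjusted over all genes and, for each gene, over the 6 pairs. Every gene called over all genes was also below 0.05 over the pairs. For most pairs this follows from the small p that a call over all genes needs, so it is not a second test. The p-values over the pairs do not correct for the choice among the 36 genes, and the calls rest on those over all genes. Moving the hydroxyl groups between the 2,7 and the 1,5 positions went with differences in 18 of 36 genes: 14, all G1/S genes, were higher with 1,5-naphthalenediol, and 4, all G2/M genes, were lower, against 6.84% of all genes higher and 7.44% lower (14.3% either way). Among the higher genes Mcm3 differed by 0.46 (95% interval 0.32 to 0.60, adjusted p over the pairs 3.15e-05), Cdc45 by 0.45 (0.31 to 0.59, 4.77e-05) and Ccne1 by 0.37 (0.26 to 0.49, 1.82e-05). The lower genes were Ccnb2 at -0.56 (-0.78 to -0.35, 0.000459), Plk1 at -0.53 (-0.81 to -0.26, 0.00342), Ccna2 at -0.37 (-0.59 to -0.16, 0.00858) and Mki67 at -0.35 (-0.50 to -0.21, 0.00109). Over all genes the adjusted p in limma was larger, at 0.000737 for Mcm3, 0.000935 for Cdc45 and 0.000678 for Ccne1. For Ccnb2, Plk1, Ccna2 and Mki67 it was 0.0032, 0.015, 0.0271 and 0.00456. Rrm2 was not called between the diols, at -0.13 with an interval of -0.40 to 0.13. Without 2,7-naphthalenediol 2 or without 1,5-naphthalenediol 2 the count was 10, and with the slide as a block it was 12. The 8 calls kept under every omission and with the block were those of Mcm2, Mcm3, Mcm4, Mcm6, Cdc45, Ccne1, Ccnb2 and Mki67.

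**Figure D5:**
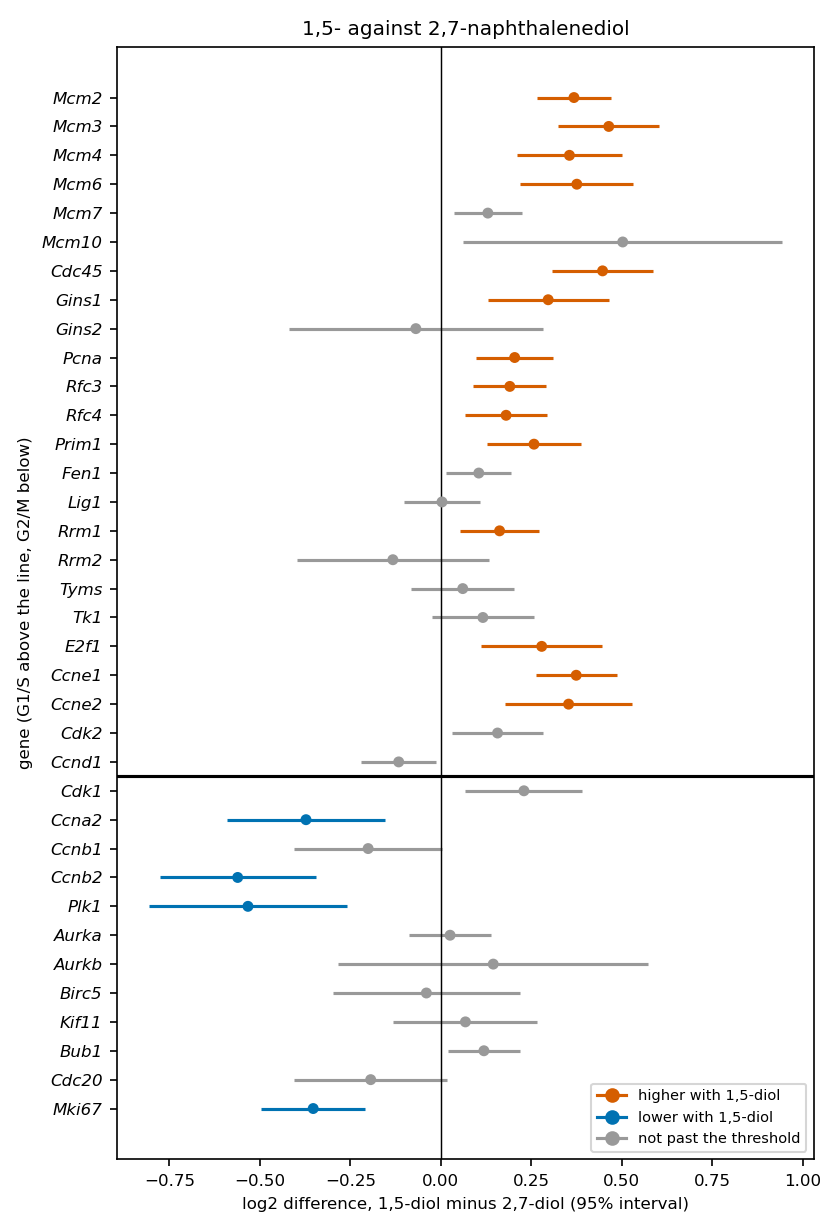
Log2 difference of 1,5-naphthalenediol minus 2,7-naphthalenediol (points) with its 95% interval (bars) for the 36 tested genes, G1/S genes above the line and G2/M genes below it. The 14 called positive differences all lie above the line and the 4 called negative ones all below it.

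Against 1-naphthol, which lacks the second hydroxyl, 18 genes were higher with 1,5-naphthalenediol and 0 lower, against 3.92% and 5.24% of all genes (9.15% either way). Cdk1 differed by 0.56 (95% interval 0.40 to 0.72, adjusted p over the pairs 3.96e-05), Ccne1 by 0.40 (0.29 to 0.51, 1.44e-05) and Bub1 by 0.34 (0.24 to 0.44, 2.44e-05). The count was 10 without 1,5-naphthalenediol 2 or without 1-naphthol 3 and 11 without 1-naphthol 2. Against naphthalene, which has no hydroxyl, 20 genes were higher with 1,5-naphthalenediol and 0 lower, against 11.1% and 13.2% (24.3% either way), Ccne1 by 0.51 (0.40 to 0.63, 1.99e-06) and Gins1 by 0.55 (0.39 to 0.72, 6.3e-05). These groups share slide 2 in part, and with the slide as a block 5 and 12 genes were called in these comparisons.

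Between 2,7-naphthalenediol and 1-naphthol 9 genes were higher with the diol and 3 lower, against 5.08% and 9.55% (14.6% either way). The higher ones were mitotic genes but for Rrm2, led by Ccnb1 at 0.63 (95% interval 0.43 to 0.84, adjusted p over the pairs 0.000133), and the lower ones were Mcm2, Rfc4 and Cdk2. Between 2,7-naphthalenediol and naphthalene 7 were higher and 0 lower, against 5.74% and 9.68% (15.4% either way), among them Ccnb1 at 0.50 (0.30 to 0.71, 0.000519) and Rrm2 at 0.55 (0.28 to 0.81, 0.0022). These groups lie wholly on different slides, and 0 and 0 genes were called with the slide as a block. The first count was 6 without 1-naphthol 2 and 7 without 1-naphthol 3. The second was 2 without 2,7-naphthalenediol 3 and 4 without 2,7-naphthalenediol 1, naphthalene 1 or naphthalene 2.

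Between 1-naphthol and naphthalene, which differ by a single hydroxyl and share slide 2, limma called 0 of the 36 genes, against 1.14% of all genes higher and 1.2% lower (2.34% either way), and 8 genes had an unadjusted p below 0.05. In limma's fit, with adjustment over the 6 pairs, 3 genes had an adjusted p below 0.05: Cdc45 at 0.22 (95% interval 0.08 to 0.36, adjusted p = 0.00856), Gins1 at 0.19 (0.02 to 0.36, 0.0346) and Cdk2 at 0.18 (0.05 to 0.30, 0.0298). Neither the unadjusted p nor the adjustment over the pairs corrects for the choice among 36 genes. The share of all genes below these limits is not given here, and none of the 3 genes was called. The 95% intervals of the 36 genes reached 0.143 to either side at the median, and missing the threshold does not show that the compounds act alike. For Ccnb1 the difference was -0.13 (-0.33 to 0.08) and for Mcm3 0.11 (-0.03 to 0.25).

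Other genes of the pathway were read on lists of their own, beside the shares of all genes called against DMSO. Calls on these lists were not read with the slide as a block or with arrays left out. All arrays of 1-naphthol and naphthalene sat on the other slide from DMSO, so for these compounds slide and compound are not told apart here. These were 9.26% up and 12.7% down with 1,5-naphthalenediol and 5.85% and 5.52% with 2,7-naphthalenediol. With 1-naphthol they were 10.7% and 9.53%, and with naphthalene 12.1% and 12.8%. Of 32 tested replication genes outside the 42, 12 rose and 2 fell with 1,5-naphthalenediol, 3 rose and 0 fell with 2,7-naphthalenediol, 4 rose and 1 fell with 1-naphthol, and 0 rose and 5 fell with naphthalene. The medians were 0.10, -0.03, 0.04 and -0.07 in that order. With 1,5-naphthalenediol the largest were Gmnn, the inhibitor of origin licensing, at 0.65 ± 0.142, the checkpoint kinase Chek1 at 0.59 ± 0.0846 and the polymerase alpha subunit Pola2 at 0.51 ± 0.147 (adjusted p = 0.00735, 0.000545 and 0.028). Chek1 also rose with 2,7-naphthalenediol and 1-naphthol, by 0.37 and 0.32 (adjusted p = 0.0192 and 0.0223). The origin recognition gene Orc6 fell by 0.58 with 1-naphthol and by 0.64 with naphthalene, and Dbf4, the activator of the kinase that fires origins, fell by 0.49 with naphthalene (adjusted p = 0.0363, 0.0225 and 0.0144).

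Of 34 tested mitotic genes outside the 42, 7 rose and 0 fell with 1,5-naphthalenediol, with a median change of 0.15, whereas the 12 on the list had a median of -0.06. The largest were the spindle protein gene Ckap2 at 0.79 ± 0.111, the centrosome kinase gene Nek2 at 0.44 ± 0.124 and Spc25 of the kinetochore at 0.43 ± 0.0681 (adjusted p = 0.000488, 0.0249 and 0.00103). The median of these mitotic genes thus lay nearer to the 0.27 of the listed G1/S genes. Where both phases were read outside the 42, the order was the other way. There the median with this compound was 0.10 for replication genes and 0.15 for mitotic genes. With 1-naphthol 0 of these genes rose and 5 fell, among them Nek2 by 0.41 and the ubiquitin-conjugating enzyme gene Ube2c by 0.44 (adjusted p = 0.0374 and 0.0488). Kif23, a motor of cytokinesis, fell by 0.48 with 1-naphthol (adjusted p = 0.0207). Its probe was dim there, well above background on 2 of the 3 arrays of 1-naphthol. With 2,7-naphthalenediol 2 rose, Ube2c by 0.54 and Racgap1, also of cytokinesis, by 0.50 (adjusted p = 0.0344 and 0.0127). With naphthalene 3 rose and 1 fell, with Ccnf, a cyclin of a ubiquitin ligase, at 0.44 (adjusted p = 0.0162).

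Genes that hold the cycle back were mostly not called. Of 17 tested, 0 rose and 3 fell with 1,5-naphthalenediol, 0 rose and 1 fell with 2,7-naphthalenediol, 1 rose and 2 fell with 1-naphthol, and 4 rose and 3 fell with naphthalene. The shares of all genes up and down were 9.26% and 12.7%, 5.85% and 5.52%, 10.7% and 9.53%, and 12.1% and 12.8% in that order. The list was not tested against these shares, and its calls were not read with the slide as a block or with arrays left out. Cdkn2b, an inhibitor of the G1 cyclin kinases, fell by 0.34 ± 0.0404 and 0.17 ± 0.0404 with the 1,5- and the 2,7-diol (adjusted p = 0.000173 and 0.0242). The antiproliferative gene Btg2 fell by 0.32 with 1,5-naphthalenediol, by 0.36 with 1-naphthol and by 0.19 with naphthalene (adjusted p = 0.00148, 0.00219 and 0.0256). Cdkn1a, the p53-induced inhibitor p21, rose with naphthalene, by 0.20 ± 0.0361 (adjusted p = 0.00386), and changed by 0.06 to 0.09 without a call with the other compounds, and Ccng1, another p53 target, was not called with any compound, at changes of 0.03 to 0.09. Of 10 tested genes of G1 cyclins and growth input, 2, 2, 1 and 2 rose with 1,5-naphthalenediol, 2,7-naphthalenediol, 1-naphthol and naphthalene and 0 fell, beside the same shares of all genes. Myc was among them with each compound, at 0.13, 0.26, 0.15 and 0.15 ± 0.0381 in that order (adjusted p = 0.0287, 0.00317, 0.0195 and 0.0169), and the growth factor gene Areg rose by 0.57 ± 0.149 with 1,5-naphthalenediol (adjusted p = 0.0177).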

How the data were processed

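Total RNA of 15 hepatocyte cultures was hybridised to one-colour Agilent rat arrays. The deposited files hold a processed intensity per spot, with background subtracted, from Feature Extraction 10.7.1.1, per the file headers. Of 58717 gene spots an array, 250 to 354 spots flagged as outliers were left out, as were the 4259 control spots. Spots of a probe were averaged as log2 intensity minus the 75th percentile of the array, which was 1690 to 2024. A probe was kept (23506 were) if some group had it well above background on each of its 3 arrays, and the brightest stood for its gene, giving 19751 genes, 10462 of them with a symbol. Symbols came from accessions in a RefSeq table of GRCr8, so 9289 genes kept an accession. The file headers name rn4 and no array coordinate was used. Limma 3.58.1 (R 4.3.3) fitted all 5 groups in 1 model, with 10 comparisons, empirical Bayes variances and Benjamini-Hochberg adjustment, and the steps were tested on simulated data. The number of arrays limits the precision.

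Per-array levels are given for the 7 genes of each phase with the lowest p in the F test, for Pcna as called in both directions, and for genes the text turns on (Rrm2, E2f1), which were chosen after their values were seen. On the other lists the 3 called genes with the largest change per compound, or fewer, are named, and Cdkn1a, Btg2, Ccng1 and Myc in any case. The genes and the lists were chosen with earlier results of these data known. Same-numbered arrays of different groups were checked for pairing: 2 of 30 pairs had residuals correlated above 0.1 (-0.186 to 0.198). Alternatives covered slide and replicate blocks, background, scaling, the filter, probes per gene, the arrays fitted and each array left out. The background alternative used median spot signals, since the files hold no mean signals.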

Additional observations from a re-analysis of the deposited data

How the results depend on the processing

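Counts are of the 36 genes called. With the slide as a block they were 0 for 1-naphthol and 0 for naphthalene against DMSO, 5 and 12 for 1,5-naphthalenediol against 1-naphthol and naphthalene, and 0 and 0 for 2,7-naphthalenediol against them, while 19 (1,5-naphthalenediol) and 6 (2,7-naphthalenediol) against DMSO stayed within 1.5 times. With the slide as a random block (correlation 0.179) they were 2 and 0 for 1-naphthol and naphthalene against DMSO and 2 and 1 for 2,7-naphthalenediol against them. Without the filter on dim probes they were 0, 2 and 1 for 2,7-naphthalenediol, 1-naphthol and naphthalene against DMSO, 9 and 8 for 1,5-naphthalenediol against 2,7-naphthalenediol and 1-naphthol, and 7 and 3 for 2,7-naphthalenediol against 1-naphthol and naphthalene. On slide 1 alone 2,7-naphthalenediol against DMSO gave 2 and the diols against each other 10. With only the arrays compared, fewer samples, the counts were 0 for 2,7-naphthalenediol and 1 for naphthalene against DMSO, 7, 8 and 10 for 1,5-naphthalenediol against 2,7-naphthalenediol, 1-naphthol and naphthalene, and 2 for 2,7-naphthalenediol against naphthalene. The difference of G1/S and G2/M medians moved to -0.0448 (2,7-naphthalenediol) and 0.0365 (naphthalene) with normexp, and to -0.0522 (2,7-naphthalenediol) with means over genes. No gene called in the main fit or in the alternative reversed its direction. The cause of these shifts was not tested. Without the filter more genes were tested, and on slide 1 alone or with only the arrays compared fewer arrays were fitted.

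Leaving out 1 array gave 15 to 19 calls for 1,5-naphthalenediol, 0 to 2 for 2,7-naphthalenediol, 3 to 7 for 1-naphthol and 2 to 5 for naphthalene against DMSO. It gave 10 to 17 for 1,5-naphthalenediol against 2,7-naphthalenediol, 10 to 17 against 1-naphthol and 16 to 22 against naphthalene, 6 to 12 and 2 to 6 for 2,7-naphthalenediol against 1-naphthol and naphthalene, 0 to 0 for 1-naphthol against naphthalene, and 23 to 29 in the F test. The phase difference ranged from 0.29 to 0.38, -0.10 to -0.06, 0.18 to 0.25 and 0.06 to 0.11 with 1,5-naphthalenediol, 2,7-naphthalenediol, 1-naphthol and naphthalene. The replicate numbers did not pair the arrays (5 of 15 correlated best with their own number), and with a replicate block the counts against DMSO were 20, 6, 7 and 4 in the same order. For single genes, 475 values under alternatives lost their call, 47 gained one and 5012 stayed on their side of the threshold. Among these 5012 the called genes kept their direction, and a change of sign in an uncalled gene was not counted. Levels near background, such as Mcm10 and Aurkb, have the widest errors.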
